A study of Mus musculus with 15 samples.

Results

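Chromatin accessibility of pancreatic islets was compared between KO-labelled and control mice after partial pancreatectomy (PPx), an operation that removes much of the pancreas and is followed by growth of the remaining beta cells. The comparison held 13111 peaks assigned to 9846 genes, each peak 601 bp wide, and all of them were taken from 1 of the 4 tables of the series. It used 8 of the series' 15 libraries, 4 from control and 4 from KO-labelled mice, with islets of 1 male mouse aged 3 months behind each library according to the labels. Every mouse was Arid1aFl/Fl and carried MIP-rtTA, a doxycycline-dependent activator under the mouse insulin promoter. The KO-labelled mice (Arid1a βKO) also carried TRE-Cre, so that doxycycline turned on Cre recombinase where the insulin promoter is active, in beta cells. Controls had no TRE-Cre. Both groups drank doxycycline at 1 g/L for 2 weeks, had PPx 1 week after it was withdrawn, and gave islets 6 days after PPx. Whole islets hold alpha, delta, endothelial and other cells in which Cre is not expected to act, and their chromatin was measured together with that of beta cells.

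ATAC-seq uses the Tn5 transposase to cut and tag DNA that is free of nucleosomes, so read density marks open promoters and enhancers. Arid1a encodes a large DNA-binding subunit of the canonical BAF form of SWI/SNF, a complex that slides and evicts nucleosomes with energy from ATP, and its loss is best known for effects on enhancers. Its paralogue Arid1b can take its place in the complex. The question was how islet chromatin differs between mice with and without Arid1a deletion in beta cells while islets regrow.

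The deposited table gives the mean of each group and no value per library, so spread is shown here as the standard error implied by the authors' difference and p-value, with a median of 0.4 log2 units over all peaks. Depth per library is unknown. Levels below are the log2 of each group's mean normalised reads per peak, so a single strong library can raise a level. Differences are KO-labelled minus control on that log2 scale. The median level was 3.53 in controls and 4.04 in KO-labelled islets, or 11.6 and 16.4 normalised reads per peak. The p-values measure the spread between mice only as far as the authors' test does. In bulk islets, more cells of a type and more open chromatin per cell cannot be told apart.

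The KO-labelled group was above the control group almost everywhere. It was higher at 11836 peaks, lower at 1239 and equal at 36, so that 90.3% of peaks lay above 0. The median difference was 0.61 log2 units, 1.53-fold, and the middle 50% of differences ran from 0.32 to 0.84. The 5th and 95th percentiles were -0.22 and 1.16. By the authors' deposited table, 1297 peaks (9.89%) were gained in KO-labelled islets at an FDR of 0.05 or below, and 11 (0.0839%) were lost. The gained peaks belonged to 1283 genes, of which 14 had 2 or more gained peaks. Most gains were of modest size: they ran from 0.79 to 3.64 with a median of 1.05, 803 exceeded 1 and 4 exceeded 2.

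Many gains lay near the threshold. By the authors' deposited table, an FDR from 0.04 to 0.05 belonged to 524 gained peaks, the last gained peak stood at 0.05 and the first one not gained at 0.0501. The table also gave an FDR of 1 to 4534 peaks, 634 of them with an unadjusted p below 0.05, and apart from Arid1a no gained peak had a mean level below 3.50. A peak that is not gained may therefore have been too weak for the authors' test to call. All values are also given relative to the table median of 0.61, because nearly every peak shared the upward difference. With each difference centred on that median and tested against its implied standard error (two-sided z, Benjamini-Hochberg over 13108 peaks), 2 peaks (0.0153%) were above the rest of the table and 49 (0.374%) below it. That standard error comes from a test against 0, so any spread shared by all peaks stays in it. The centred test may therefore miss peaks.

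**Figure D1:**
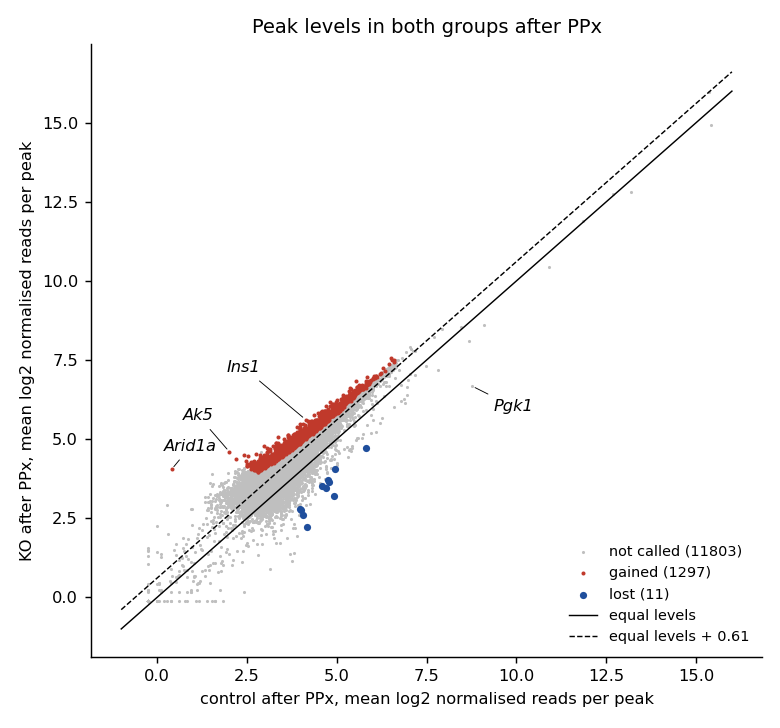
Each point is 1 of 13111 peaks, with the control group on the x axis and the KO-labelled group on the y axis. Both are the log2 of mean normalised reads per peak. Red points are the 1297 gained and blue points the 11 lost peaks at the authors' FDR of 0.05, the solid line marks equal levels and the dashed line equal levels plus the table median of 0.61, around which most points lie.

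Both peaks that stood above the rest of the table lay inside genes rather than at promoters, in Arid1a itself and in Ak5. The Arid1a peak, in exon 9 of 20 (mm10, chr4:133692980-133693580), was at 0.40 in controls and 4.04 in KO-labelled islets. That difference of 3.64 (implied SE 0.69) was 3.03 above the table median, at an FDR of 0.00201 in the authors' deposited table, and the peak was called in 0 control and 3 KO-labelled libraries. Its control level lay close to the lowest control level of the table, -0.26, so the size of the difference rests on few control reads. The labels do not say which exon is floxed, so the higher signal in the targeted gene does not check them, and directions are given for the KO-labelled group. No other SWI/SNF subunit had a gained peak. The 3 Arid1b peaks, in introns 4 and 8 of 18 and upstream of the gene, differed by 0.95 (implied SE 0.426), 0.63 (implied SE 0.394) and 0.35 (implied SE 0.403), at FDRs of 0.0801, 0.185 and 0.46 in the authors' deposited table.

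Ak5 encodes an adenylate kinase, an enzyme that balances ATP, ADP and AMP. Its intron 5 of 13 peak (chr3:152624474-152625074) was at 2.01 in controls and 4.60 in KO-labelled islets. The difference was 2.59 (implied SE 0.48), 1.98 above the table median, at an FDR of 0.000605 in the authors' deposited table. Calls came from 0 control and 3 KO-labelled libraries. Other Ak5 peaks had smaller differences. One in intron 10 rose by 0.96 (implied SE 0.356) at an FDR of 0.0486 in the authors' deposited table, and an exon peak differed by 0.23 without a call.

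Among the promoters with the smallest FDR, Pttg1 had the largest difference. Pttg1 encodes securin, which holds separase in check until sister chromatids part. Its promoter peak (chr11:43425976-43426576) was at 2.20 in controls and 4.38 in KO-labelled islets, a difference of 2.18 (implied SE 0.454) that was 1.57 above the table median. The FDR was 0.00701 in the authors' deposited table, and the peak was called in 0 control and 4 KO-labelled libraries. Distal Pttg1 peaks included differences of 0.66 and 0.42, neither called. Centred on the table median, the promoter had an adjusted value of 0.0972 and missed the threshold.

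At Rfxap, which encodes part of the RFX complex that switches on MHC class II genes, the promoter went from 3.30 to 4.89, and it too was called in 0 control and 4 KO-labelled libraries. The promoter of Psmd1, a base subunit of the 19S proteasome cap, went from 3.09 to 4.68 with the same calls. Those 2 differences were both 1.59, and 0.98 relative to the table median. At Ins1, one of the mouse insulin genes, the promoter (chr19:52263934-52264534) was at 4.13 in controls and 5.62 in KO-labelled islets, a difference of 1.49 (implied SE 0.348) with calls in 2 and 4 libraries. Reads of the insulin promoter transgene, which both groups carry, were not separated from those of the endogenous gene.

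Further gained promoters were already open in controls. Thyn1, a nuclear protein gene, went from 4.47 to 5.81 with calls in all libraries. Cryzl1, a quinone oxidoreductase-like gene, went from 4.28 to 5.57, and Pdcd2, which helps assemble the small ribosomal subunit, from 3.97 to 5.48, both called in 3 control and 4 KO-labelled libraries. Azi2, an adaptor in TBK1 signalling, went from 3.89 to 5.23. The promoter of Rsrc1, a splicing-related gene, went from 3.37 to 4.89 and a 3' UTR peak of the sialyltransferase gene St3gal2 from 2.43 to 4.50, and neither was called in a control library. These peaks, with Psmd1 and Ins1, shared an FDR of 0.0154 in the authors' deposited table, and none passed once centred on the table median.

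The other peaks with the largest gains started from low control levels of 2.50 to 3.07, which a ranking by difference favours. They were the promoters of Irf2bp1 (2.52 to 4.46), a corepressor of IRF2, of Dcun1d1 (2.50 to 4.20), which promotes cullin neddylation, of Slc22a23 (2.61 to 4.28) and of Hacd1 (3.07 to 4.71), an enzyme of very long fatty acid synthesis. Ppm1l, a protein phosphatase gene, had its peak 2 to 3 kb from the start (2.74 to 4.53). Introns of the ubiquitin ligase gene Marchf4 (2.51 to 4.16) and of Syt1 (2.51 to 4.14), a calcium sensor of vesicle release, and a distal peak of the kinase gene Csnk1a1 (2.56 to 4.20) completed the set. Of these 8 peaks, 7 were called in 0 control libraries and Marchf4 in 1, against 2 to 4 KO-labelled libraries.

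Both a gained and an uncalled peak were held by 330 named genes, and in these an uncalled peak can still lie above the table median. Ppm1l had 2 gained peaks, the outer one above and its promoter at 4.57 and 5.66, beside an intron peak that differed by -0.26. Hacd1 rose at its promoter, while a peak 1 to 2 kb away was at 4.17 and 4.34. Dusp4, a phosphatase that switches off ERK, went from 3.36 to 4.80 at its promoter (FDR 0.0187 in the authors' deposited table), and distal peaks differed by 0.69 and 0.87 without a call. An intron peak of Rsrc1 differed by 0.34.

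The promoter sequences of these genes are shown because most gained peaks lay at promoters. Of the promoters with the smallest FDR above, 6 had a window in the RefSeq table of the GRCm38.p6 build, and the 150 bases before each transcription start are printed 5′ to 3′ on the gene's strand, with matches to the searched motifs in capitals. Both strands were searched for 11 motifs. The site of SP and KLF factors was taken as GGGCGG, whose matches can overlap each other. The NFY box was searched with the letters CCAAT, and the TATA box, which marks focused promoters, as TATAAA. The ETS site was taken as CCGGAAG, and the E-box of bHLH factors as CACGTG. The site of AP-1, which Fos and Jun proteins bind, was TGANTCA. The cyclic AMP response element CRE was TGACGTCA, and the site of the growth regulator NRF1 was GCATGCGC. For RFX factors the letters GTTGCCAT were used, for the initiator factor YY1 the letters AAGATGGCG and for E2F the letters TTTGGCGC.
Pttg1 (chr11:43425982-43426131, minus strand): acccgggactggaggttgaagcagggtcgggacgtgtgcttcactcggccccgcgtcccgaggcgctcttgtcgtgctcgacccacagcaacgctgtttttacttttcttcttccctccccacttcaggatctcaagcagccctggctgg
Thyn1 (chr9:26999527-26999676, plus strand): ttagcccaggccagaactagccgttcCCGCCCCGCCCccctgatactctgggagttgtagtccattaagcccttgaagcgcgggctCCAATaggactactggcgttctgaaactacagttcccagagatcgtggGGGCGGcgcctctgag
Psmd1 (chr1:86064469-86064618, plus strand): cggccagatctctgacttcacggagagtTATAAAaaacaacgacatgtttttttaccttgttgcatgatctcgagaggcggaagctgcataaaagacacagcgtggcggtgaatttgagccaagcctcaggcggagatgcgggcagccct
Ins1 (chr19:52264147-52264296, plus strand): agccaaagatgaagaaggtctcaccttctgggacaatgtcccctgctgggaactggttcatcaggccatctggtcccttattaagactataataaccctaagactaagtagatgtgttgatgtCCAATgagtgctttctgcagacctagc
Cryzl1 (chr16:91728803-91728952, minus strand): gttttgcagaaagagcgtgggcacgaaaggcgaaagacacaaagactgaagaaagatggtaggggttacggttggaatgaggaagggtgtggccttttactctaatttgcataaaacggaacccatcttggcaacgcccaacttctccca
Azi2 (chr9:118040372-118040521, plus strand): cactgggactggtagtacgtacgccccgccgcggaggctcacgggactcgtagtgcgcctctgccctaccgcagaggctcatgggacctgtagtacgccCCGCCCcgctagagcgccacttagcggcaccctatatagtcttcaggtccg

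Thyn1 carries 3 SP matches and 1 NFY match, Azi2 1 SP match, Psmd1 1 TATA match and Ins1 1 NFY match, while Pttg1 and Cryzl1 carry none of the searched letters in these stretches. Over the 300-base windows the ratio of observed to expected CpG dinucleotides was 0.747 at Pttg1, 0.811 at Thyn1, 0.84 at Psmd1, 0.937 at Cryzl1 and 1 at Azi2. Ins1 was at 0, with no CpG in its window, and was the exception in this set.

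Over all listed promoters, those with more CpG had slightly higher medians and were gained more often. A RefSeq window was found for 5026 promoter peaks, of which 95% had their centre within 300 bp of the start. The median CpG ratio was 0.832 at the 789 gained promoters, 0.8 at all matched ones and 0.749 in the 515 peaks of the lowest decile of differences, against 0.384 over all 32851 RefSeq windows. From the lowest to the highest CpG quintile the median difference was 0.66, 0.72, 0.74, 0.74 and 0.76, and the share gained was 9.74%, 15.4%, 17.7%, 16.4% and 19.2%. The step from the lowest quintile to the next was the largest. From the weakest to the strongest concentration quintile the gained share was 0%, 5.97%, 9.27%, 18.6% and 21.8% for the lowest CpG quintile. For the highest CpG quintile it was 0%, 11.9%, 21.9%, 23.6% and 36.3%. In the strongest concentration quintile the 2 median differences were 0.74 and 0.81.

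The SP motif was found in 78.6% of gained promoters, 72% of listed ones, 62.9% of the lowest decile and 35.7% of all RefSeq promoters. Listed promoters with and without it had median differences of 0.74 and 0.69. For ETS the shares were 21.2% of gained, 19.1% of listed and 8.86% of all promoters. TATA was found in 4.31% of gained, 5.61% of listed and 13.6% of all promoters. AP-1 was in 4.31% of gained and 3.68% of listed promoters, and NFY in 44.1% and 44.6%. For each of the 11 motifs the median difference with the motif lay between 0.67 and 0.74.

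Medians differed more by position in the gene than by these motifs. Promoter peaks, within 3 kb of a start, had a median difference of 0.71 and other peaks 0.38. Of 8050 promoter peaks 1155 (14.3%) were gained, against 142 of 5061 other peaks (2.81%). The class within 1 kb of a start stood apart even from outer promoter peaks: its 7650 peaks had a median of 0.72 and 14.9% gained, while the 206 peaks at 1 to 2 kb and the 194 at 2 to 3 kb had medians of 0.49 and 0.46 with 9 and 8 gained. Distal intergenic peaks (3025) had a median of 0.39 with 96 gained and 9 lost, introns (1670) 0.37 with 34 gained, exons (204) 0.39 with 6 gained and 1 lost, and 3' UTRs (84) 0.36 with 3 gained. Within 1299 named genes that had both kinds of peak, the promoter difference was the higher one in 971 and the lower one in 317, with medians of 0.74 and 0.40.

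Level moved with position. From the lowest to the highest decile of mean concentration the share of promoters went from 35.9% to 88.3%, the median difference from 0.39 to 0.77 and the share gained from 0% to 26.7%. The promoter gap was present in every decile, at 0.21 to 0.34. The spread of the differences narrowed from an SD of 0.61 over the peaks of the lowest decile to 0.29 in the highest.

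**Figure D2:**
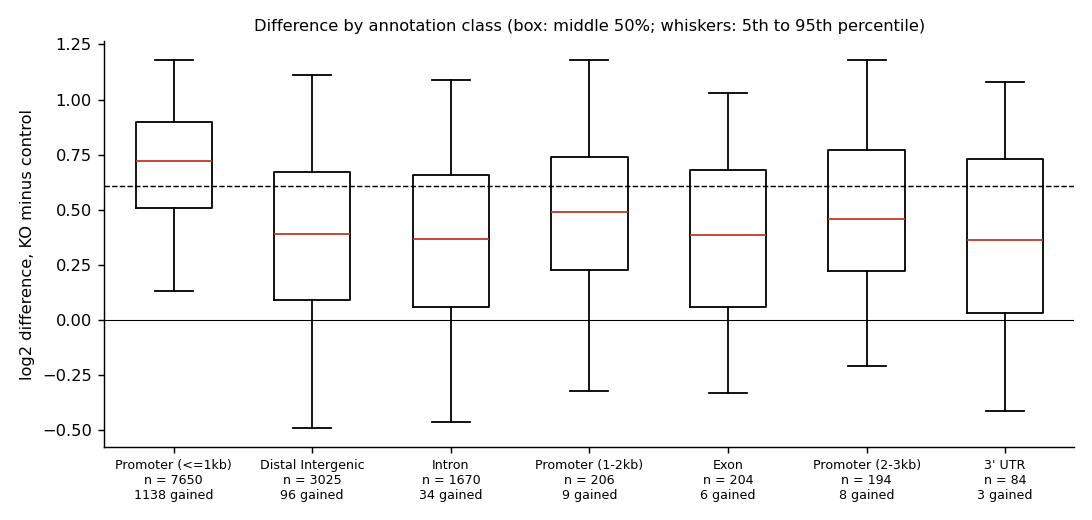
Log2 differences, KO-labelled minus control, by the annotation class of the peak, with the number of peaks and of gained peaks under each box. Boxes hold the middle 50% of peaks with the median in red, whiskers run from the 5th to the 95th percentile, and the dashed line is the table median of 0.61: of the classes drawn, only promoter peaks within 1 kb of a start have their median above that line.

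The deposited library calls, a second readout of the same libraries, went the same way as the levels. A control library called on average 5340 of the listed peaks and a KO-labelled library 9364. Of all peaks 8841 were called in more KO-labelled than control libraries, 532 in fewer and 3738 in as many. All 4 KO-labelled libraries called 4897 peaks and all 4 control libraries 2423, while 3724 peaks were called in 0 control and 84 in 0 KO-labelled libraries. The 222 peaks called in 0 control and 4 KO-labelled libraries had a median difference of 0.97, and 82 were gained. At the opposite corner were 3 peaks called in 4 control and 0 KO-labelled libraries, assigned to Gm21860, Gm22563 and Ndufb3, all lost with a median of -1.24.

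The upward difference was also present at peaks that every library called. The 2268 peaks called in all 8 libraries had a median of 0.73, with 481 gained and 3 lost. A peak was listed when at least 2 of the 8 libraries called it, which the KO-labelled libraries did more often. Among the 5775 peaks called in 2 or more control libraries, which would be listed without any KO-labelled library, the median was 0.63 and 89.3% lay above 0, with 883 gained and 10 lost.

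**Figure D3:**
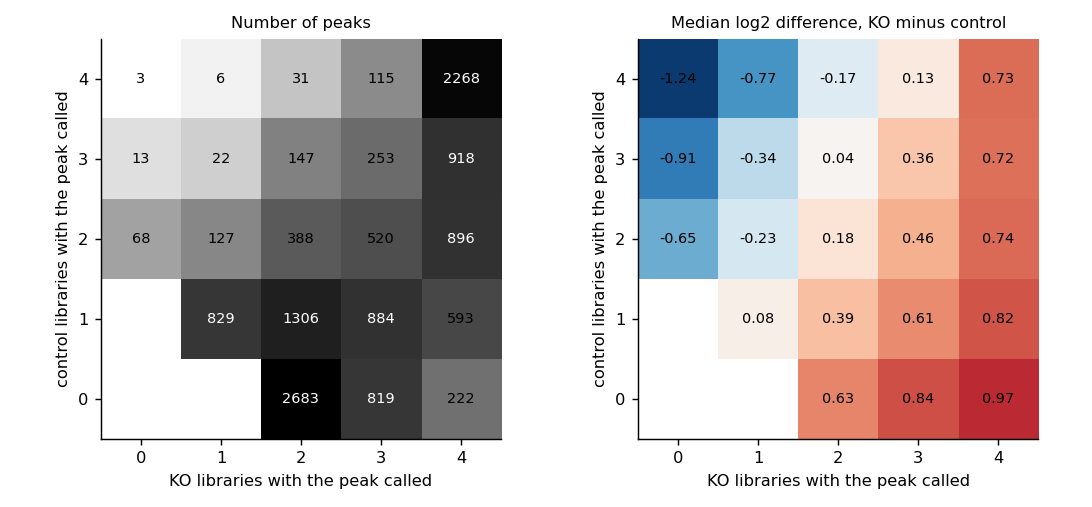
Peaks by the number of control libraries (y axis) and KO-labelled libraries (x axis) in which the peak was called, with the number of peaks on the left and the median log2 difference, KO-labelled minus control, on the right. The corner called in all libraries holds 2268 peaks at a median of 0.73, and blank cells hold no listed peak.

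The few peaks with the highest control levels lay mostly below the shift. At the 20 peaks with a control level of 7 or more, 11 were above control, 4 were above the table median and 0 were gained, with a median difference of 0.03. They were picked by control level alone, which favours peaks that are high in controls. The highest decile of mean concentration had a median difference of 0.77 with 26.7% gained. The 3 strongest were assigned to the predicted genes Gm10800, Gm10222 and Gm10801, at 15.42, 15.36 and 13.19 in controls. An exon peak of Chl1, a neural adhesion gene, was at 12.69 and 12.76, a distal peak of the kinase gene Pak3 at 11.85 and 11.89, and a distal peak of Dpy19l2 at 8.47 and 8.53. These levels lie far above the median control level of 3.53. Whether reads at the strongest peaks map to only 1 place in the genome was not tested. A distal peak of Ly6c2, a surface antigen gene of leukocytes, was at 8.69 in controls and 8.11 in KO-labelled islets, below the table median (adjusted value 0.0329, two-sided z). The promoter of Hjurp, a chaperone of centromeric histone, was at 7.93 and 8.49. The Pgk1 promoter, of a glycolytic kinase gene, was at 8.76 and 6.68, a difference of -2.08 to which the authors' deposited table gave a p of 1, so that no standard error could be computed. Summed over all peaks the normalised reads were 1.37 times as many in KO-labelled as in control islets, and 1.5 times without the 3 strongest peaks, which held 30.9% of the control and 24.4% of the KO-labelled sum.

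Chromosomes differed little. Their medians ran from 0.55 on chromosome 19 to 0.72 on X, except for Y at 0.13. On Y, 60 of 76 peaks stood at the lowest values of both groups in the table, -0.26 and -0.13, and the other 16 had a median of -0.07.

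Few peaks fell in KO-labelled islets. The 11 lost peaks included 2 of named genes. Exon 61 of 67 of Pkhd1, the fibrocystin gene of ductal and kidney cilia, was at 4.79 in controls and 3.63 in KO-labelled islets, a difference of -1.16 (implied SE 0.371). Its FDR was 0.0345 by the authors' deposited table, and 4 control against 1 KO-labelled library called it. Ndufb3 encodes part of respiratory complex I, and the distal peak given to it was at 3.99 and 2.80 (implied SE 0.434), with an FDR of 0.0469 according to the authors' deposited table. The other lost peaks were assigned to the predicted genes Gm22464, Gm10354, Gm5466, Gm21860, Gm17377, Gm22563, Gm25255, Gm12362 and Gm20812. Of these, Gm10354 had the largest difference, from 4.17 to 2.23.

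The 49 peaks below the rest of the table included all 11 lost ones, and all 49 were lower in KO-labelled islets. They were mostly away from promoters, with 30 distal, 11 in introns and 5 at promoters, and 33 were called in all 4 control libraries. Their number rests on the centre: non-promoter peaks have a median of 0.38, and centred on it 7 peaks were below, while centring by concentration and promoter class left 25. Predicted, Rik and microRNA genes held 25 of them. An intron of Jarid2, a cofactor that guides Polycomb repressive complex 2, was at 5.41 in controls and 4.73 in KO-labelled islets with calls in all libraries, 1.29 below the table median (adjusted value 0.022). An intron of Vps45, a vesicle fusion factor, was at 3.85 and 2.19 (0.00969), and distal peaks were at 3.71 and 1.38 for Lrrc7 (0.00491), a synaptic scaffold, and at 3.81 and 2.33 for Zfr (0.0156), an RNA-binding protein. An intron of Sema3a, a repulsive axon guidance ligand, was at 4.73 and 3.96 (0.0317). A distal peak of P4ha2, a collagen prolyl hydroxylase, was at 5.94 and 5.19, the last intron of Apool, a mitochondrial cristae gene, at 6.26 and 5.67, and a distal peak of the Y-linked Zfy1 at 5.34 and 4.67. The set also held the promoter of Speer4cos at 3.61 and 1.86 and a distal peak of the pseudogene Vmn1r-ps151 at 6.89 and 6.13. Apart from the lost peaks, none of those named here passed the authors' own test.

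Lists of genes by function are described by their counts beside the shares of all peaks (9.89% gained) and of promoter peaks (14.3% gained), with the table median of 0.61. SWI/SNF and Polycomb subunits stood near these values. Other remodellers had a median of 0.92 at 17 promoters, and acetyltransferases and trithorax factors 0.80 at 10, against 0.71 at all promoters. These differences were not tested. Of 16 SWI/SNF peaks 1 was gained, that of Arid1a, and the median was 0.70. Among 26 peaks of other remodellers 4 were gained, with a median of 0.80: the promoters of Chd1 (4.64 to 5.72), which spaces nucleosomes in transcribed genes, of Smarca5 (4.73 to 5.68), the ISWI motor, of Gatad2a (5.36 to 6.32), a NuRD subunit, and of Baz2b (2.86 to 4.07). Polycomb subunits had 2 of 19 gained, at the promoters of Phc1 (3.76 to 4.85) and Rybp (3.62 to 4.58), while a distal Rybp peak was at 4.01 and 3.32 without a call. Histone acetyltransferases and trithorax factors had 2 of 12 gained, at Kat6b (5.19 to 6.13) and the H3K27 demethylase gene Kdm6a (4.57 to 5.52).

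Beta cell identity genes had 4 of 33 peaks gained and a median of 0.63, with a promoter median of 0.69 against 0.71 for all promoters. Besides Ins1, these were the promoters of Foxa2 (3.60 to 4.75), a pioneer factor of foregut and islet, Nkx6-1 (3.81 to 4.87), a factor that keeps beta cell identity, and Rfx6 (4.04 to 5.05), needed for islet development. An intron of St18 was at 3.34 and 2.54, not called. Insulin granule and exocytosis genes had 3 of 43 gained, at the promoters of the granins Scg5 (3.94 to 4.97) and Scg3 (4.52 to 5.46) and of the priming factor Unc13b (3.35 to 4.36). An intron of the granule zinc transporter gene Slc30a8 was at 4.49 and 4.34. Glycolysis and glucose sensing had 3 of 19 gained, the pyruvate carrier genes Mpc1 (3.66 to 4.62) and Mpc2 (4.98 to 5.81) and Pdhb of pyruvate dehydrogenase (5.63 to 6.52), and the median was 0.56. Among 8 peaks of genes that beta cells normally silence 0 were gained, and the progenitor list had 1 of 7, a distal peak of Aldh1a3 (2.82 to 4.04), a marker of dedifferentiated beta cells.

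Growth signalling genes were likewise gained in part. Insulin and IGF signalling had 5 of 26 peaks gained and the highest median of the lists with at least 10 peaks, 0.84, at the promoters of Pik3ca (3.93 to 5.10) and Pik3r2 (4.34 to 5.16), which encode a catalytic and a regulatory PI3 kinase subunit, of Gsk3a (4.71 to 5.90) and Gsk3b (6.02 to 6.89), kinases that AKT inhibits, and of Rictor (3.47 to 4.49) of mTORC2. An intron of Mtor was at 3.18 and 2.80, not called. TGF-beta and activin signalling had 5 of 20 gained, with a median of 0.54: Skil (4.11 to 5.20), a SMAD corepressor, Tgfbr1 (4.12 to 5.20), Smad2 (3.92 to 4.96), and the promoter (3.45 to 4.71) and an intron (5.09 to 6.14) of Acvr1c, the receptor ALK7. ERBB and MAPK signalling had 4 of 37 gained, of which Dusp4, Spry2 (4.94 to 6.00) and Etv5 (4.78 to 5.79) are known targets of ERK that include its feedback inhibitors, and Sos1 (3.25 to 4.26) activates RAS. EGF and neuregulin ligands with their receptors had 1 of 18, at the promoter of betacellulin, Btc (4.29 to 5.19). AP-1 factors had 1 of 15, Atf7 (3.73 to 4.76), and prolactin receptor signalling 1 of 7, Bcl6 (3.53 to 4.67).

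Cell cycle drivers had 3 of 35 peaks gained, at the promoters of Pttg1, of cyclin E2, Ccne2 (4.57 to 5.50), and of cyclin A2, Ccna2 (4.90 to 5.88). An intron peak of cyclin D3, Ccnd3, was just outside the threshold, at 3.22 and 4.29. Cell cycle inhibitors had 4 of 8 gained, all at promoters of CDK inhibitor genes: Cdkn2c (3.80 to 4.94), Cdkn2d (5.16 to 6.10), Cdkn2b (4.43 to 5.44) and Cdkn1b (4.24 to 5.13), with a list median of 0.85. The share gained was 8.57% for the drivers, below the 9.89% of all peaks, and 50% for the inhibitors, from only 8 peaks. DNA repair had 3 of 25, among them Lig4 (4.29 to 5.31) and Xrcc5 (3.48 to 4.45), both of end joining.

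Stress response lists had gained shares on both sides of the 14.3% of all promoter peaks. They ran from 10% for the circadian clock to 20.8% for interferon and NF-kB response genes. The unfolded protein response had 5 of 27 peaks gained and a median of 0.76: a distal peak of Eif2ak3 (3.70 to 4.98), the sensor kinase PERK, and the promoters of Hspa5 (4.73 to 5.78), the chaperone BiP, of the disulfide isomerase gene Pdia6 (4.64 to 5.61), of Sel1l (6.06 to 6.93), which acts in degradation of misfolded proteins, and of Eif2s1 (3.70 to 4.67), the factor that PERK phosphorylates. Heat shock and chaperones had 2 of 18, Dnaja3 (3.21 to 4.43) and Hspe1 (4.86 to 5.75). Autophagy had 3 of 29, Atg4c (3.68 to 4.75), Atg4d (3.62 to 4.67) and Atg5 (4.92 to 5.82). The circadian clock had 2 of 20, its activator Arntl (4.41 to 5.26) and its repressor Cry1 (3.91 to 4.85). Interferon and NF-kB response genes had 5 of 24 and a median of 0.82, among them Ifngr1 (4.20 to 5.32), the promoter (3.63 to 4.67) and a distal peak (4.36 to 5.22) of Tnfaip3, which restrains NF-kB, and an intron of Nfkb1 (3.98 to 4.95).

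Large gene families differed in how many of their peaks were promoters. Families were taken by symbol, so that a few members encode other proteins or antisense RNAs. Rpl and Rps genes, nearly all of cytosolic ribosomal proteins but with the kinase-like Rps6kl1, had 11 of 51 peaks gained, 21.6%, with a median of 0.71, led by Rpl37a (3.15 to 4.63) and Rpl36al (4.89 to 6.12), and 50 of the 51 were promoters. Mitochondrial ribosomal proteins had 9 of 43, led by Mrps28 (5.16 to 6.40), histone genes, linker histones included, 8 of 37, led by H4c3 (3.69 to 4.82), splicing proteins 9 of 46, led by Srsf11 (4.42 to 5.62), proteasome subunits 4 of 25, led by Psmd1, and the respiratory chain 9 of 59 with Ndufb3 lost, led by Uqcrq (4.07 to 5.22). Zfp zinc finger genes had 43 of 269 gained, 16%, with a median of 0.73. Single members still lay low, such as the promoters of Rpl29 at 3.08 and 3.10 and of the elongation factor gene Eef2 at 4.37 and 3.73, not called.

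Ion channel, neurotransmitter receptor and adhesion families, whose peaks lay mostly outside promoters, were at the other end. Voltage-gated and related channels (Kcn, Cacn and Scn genes) had 1 of 75 peaks gained, 1.33%, with a median of 0.36 and 28 promoters. That 1 was the promoter of Kcnk12 (3.61 to 4.86), a two-pore potassium channel gene. Glutamate and GABA receptors had 0 of 38 and a median of 0.26 (0.50 at 9 promoters), with a Gabrg3 intron at 4.21 and 3.33, not called. Cadherins and protocadherins had 2 of 51, an intron of Pcdh9 (2.87 to 4.37) and a distal peak of Pcdh10 (3.14 to 4.41), and other introns of Pcdh9 differed by -0.72 and -0.62 without a call. Genes with homeobox, forkhead, Sox and Tbx symbols, which include Foxred1, Paxip1 and antisense genes such as Pax6os1, had 2 of 50, the Foxa2 and Nkx6-1 promoters. At promoters alone the medians of these families, 0.50 to 0.59, were also below the 0.71 of all promoters, which was not tested.

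**Figure D4:**
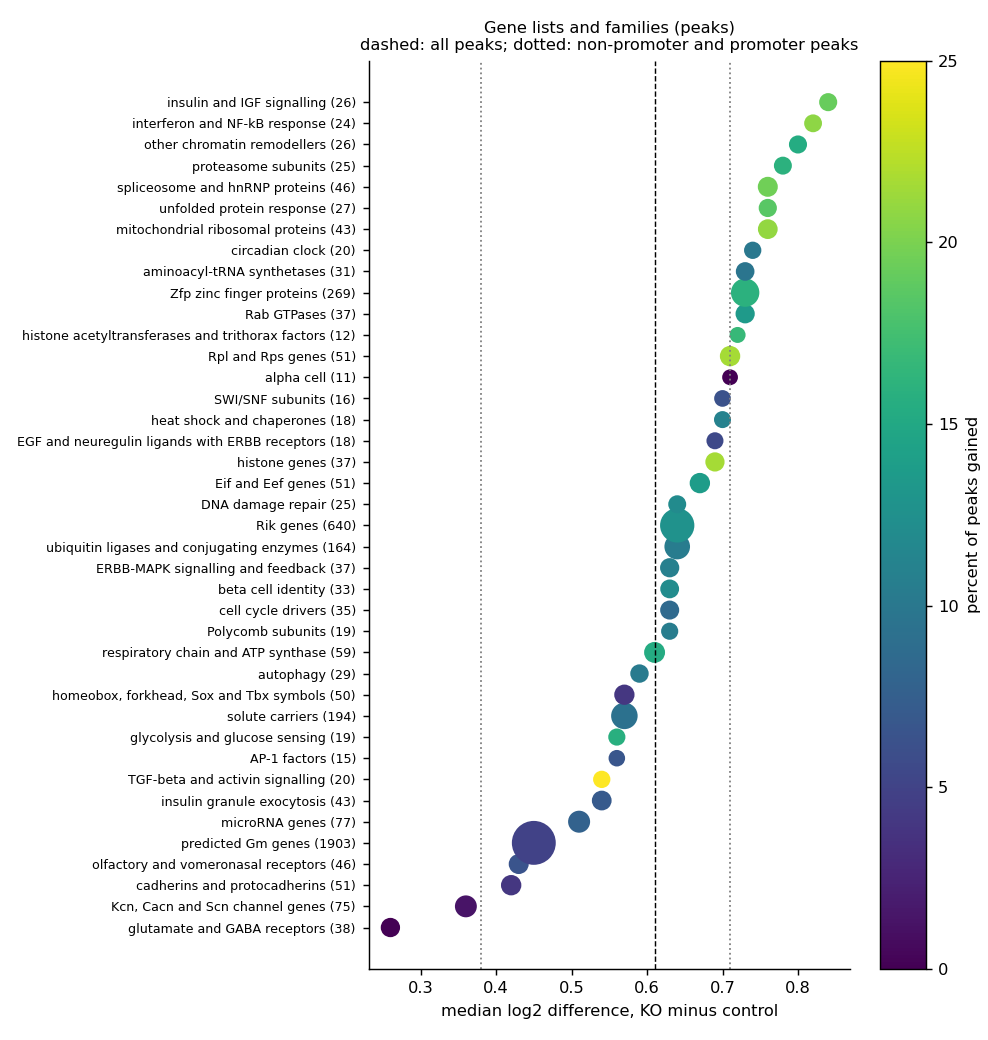
Median log2 difference, KO-labelled minus control, of the peaks of each gene list or family with at least 10 listed peaks (number of peaks in brackets), coloured by the percent of its peaks gained and with point area growing with the number of peaks. The dashed line is the median of all peaks (0.61) and the dotted lines those of non-promoter (0.38) and promoter peaks (0.71): insulin and IGF signalling lies highest at 0.84 and glutamate and GABA receptors lowest at 0.26.

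Markers of the cells an islet preparation can hold were read beside these results. Of 36 beta cell genes 20 had a listed peak, while Ins2, Pdx1, Neurod1, Iapp and Slc2a2 had no row in the table used here and are not analysed. Alpha cell markers had 0 of 11 peaks gained, with a median difference of 0.71 and 9 peaks above 0, at median levels of 3.80 in controls and 3.88 in KO-labelled islets. Their defining gene Gcg, which encodes glucagon, was at 3.80 and 3.70. Delta and PP cell markers had 1 of 8 gained, distal to the somatostatin gene Sst (4.20 to 5.32), with a median difference of 0.54 and median levels of 4.02 and 4.54. Of these 8 peaks 5 were above 0 and 3 above the table median, and the median at their 3 promoters was -0.29. Etv1 is a member of both the alpha and the delta and PP lists, so the lists share its peaks. Acinar markers had 4 peaks in 3 of 17 genes and a median difference of 1.03, the highest of the lists, with 3 peaks above the table median. An intron of Gatm, a gene that other cells also express, was gained (2.96 to 4.20), while the Gatm promoter (3.62 and 4.53), an intron of Nr5a2 (2.63 and 3.79) and the promoter of the acinar factor gene Bhlha15 (3.06 and 3.15) were not called. Endothelial markers had 0 of 9 gained, a median difference of 0.26 and 0 peaks above the table median, at median levels of 3.54 and 3.37, ductal markers 0 of 4, stellate and fibroblast markers 0 of 5, leukocyte markers 0 of 4 and Schwann cell markers 0 of 3. The part of cell composition in the results above was not tested.

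Before PPx the same peaks had shown no such shift. The earlier comparison used other mice, 4 control and 3 KO-labelled, and 7504 of the present peaks overlapped one of its 7826 peaks. Over these the median difference was 0.66 after and 0.00 before PPx, and 1173 (15.6%) were gained after it. Those gained peaks had a median of 1.03 after and 0.10 before, where all matched peaks had 0.00, and 742 lay above 0 before. They were picked by their difference after PPx, which by itself favours a larger value after than before. The 5607 peaks without a counterpart were weaker, with medians of 3.06 in controls and 3.53 in KO-labelled islets, and 124 (2.21%) were gained.

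The change of the genotype difference between states was tested peak by peak. With each table centred on its own median, 0 of 7496 peaks passed a two-sided z test after adjustment by Benjamini-Hochberg, the lowest adjusted value being 0.475, and 120 (1.6%) had an unadjusted p below 0.05. Without centring 0 passed and 1086 had an unadjusted p below 0.05. Among named genes the Psmd1 promoter had the largest change relative to its standard error, from -1.15 (implied SE 0.506) before to 1.59 (implied SE 0.37) after PPx. The Pttg1 promoter went from -0.23 to 2.18. The Pkhd1 exon went from -0.16 to -1.16 and an exon of Fez2 from 1.77 to -0.08. None of these changes passed the test, which uses the same implied standard errors and may therefore miss changes.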

How the data were processed

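Each ATAC-seq library came from 40000 islet cells, and single ends were read over 75 bp, per the labels' protocols. The submitters' processing notes name the mm10 build and the tools ChIPseeker, DiffBind, MACS, BWA and cutadapt. Their versions, settings and scaling are not given in these sources. As values per peak, the authors deposited log2 concentrations (group means), a p-value and FDR per peak, and counts of the libraries in which each peak was called. The p-value and FDR come from the authors' deposited test, which no source here names. Depth per library is unknown. Coordinates are those of the deposited table.

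Of 18392 rows, 5281 exact repeats were dropped. The difference was computed from the 2 deposited levels, each the log2 of a group mean, and gained or lost meant an FDR of 0.05 or below. The implied SE is the size of the difference over the normal quantile of its two-sided p, or the median of 1 of 40 concentration bins for differences under 0.1 or p of 0.95 and above. For the centred test, 3 peaks with p of 1 were left out. Code was tested on simulated data with independent noise at each peak, which cannot show the effect of spread that peaks share. Peaks of the 2 states counted as matched when they shared 1 bp or more. Python 3.11.15, numpy 2.4.6, pandas 2.3.3 and scipy 1.17.1 were used.

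Named peaks are every Arid1a and Arid1b peak; the 12 smallest FDRs, 12 largest gains, 12 lowest by centred z and 6 strongest in controls (1 per gene, leaving out Gm, Rik and Mir genes); every lost peak; and members of the 31 lists and 20 families with the smallest p or lowest difference. The remaining named members were chosen after their values were seen. The comparison, its lists and tests were chosen with earlier results of these data known. Some peaks that the rule names are not reported here.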

Additional observations from a re-analysis of the deposited data

How the results depend on the processing

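The upward difference of the table kept its direction and size under each setting run: its median was 0.59 to 0.70 and the promoter gap 0.24 to 0.34. Each of these settings used the same deposited group levels. None could therefore show how the upward difference depends on scaling between libraries or on depth. The number of called peaks depended on the threshold and on centring. Gained peaks, 1297 as deposited, numbered 3 at the authors' FDR of 0.01, 3360 at 0.1, 541 with the deposited p adjusted over all listed peaks (497 of them among the 1297), and 2 when centred on the table median or by concentration and promoter class. Lost peaks, 11 as deposited, numbered 0 and 33 at those FDRs, 49 and 25 with the 2 centrings, 17 with repeated rows kept and 7 among peaks above the median concentration. Peaks above the table median, 2 in the reported setting (Arid1a and Ak5), numbered 4 with concentration-bin standard errors and 1 among peaks above the median concentration. Those below it, 49, numbered 7 when centred on non-promoter peaks and 74 when centred on promoter peaks. The cause of these shifts was not tested beyond the construction of each setting. Of 61 named peaks, 21 lost and 11 gained a call on centring, and Pgk1 could not be centred. Most of these peaks were named for their deposited or centred values, so the counts do not describe the table as a whole. The setting with peaks called in 2 or more control libraries was chosen after seeing the data. No paired analysis was possible because the table holds group means and the sample numbers differ between groups, and no library could be left out for the same reason.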
